A study of Saccharomyces cerevisiae with 2 samples.

Results

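The 9 genes described here encode the pyruvate decarboxylases PDC1, PDC5 and PDC6, the alcohol dehydrogenases ADH1 to ADH5, and SFA1, an alcohol dehydrogenase that also acts on formaldehyde. They were taken by name from the 7126 rows of the deposited expression table, where 4 carried their gene name and 5 were found through their locus tag, and all 9 had a mean of at least 1 TPM. The table held a YPD2 library and a YPM library, 1 of each, from the carotenoid producer BL03-D-4 after 24 h of growth, and YPM stands for modified YPD. The labels call the first medium YPD, and the column named MYPD was read as YPM. BL03-D-4 derives from BY4742 and carries in both libraries a deleted GAL80 with crtB, crtI and crtE cassettes behind the HSP26 promoter, a truncated HMG-CoA reductase behind the CIT1 promoter, and a deleted ALD6. YPM was made with another yeast extract than YPD2 and with added phosphate and sulfate salts and a trace metal solution, so these differences cannot be told apart here. The paper took about 24 h as stationary phase but also reports clearly different growth curves in the YPD2 and YPM media. The stage of growth at sampling therefore cannot be told apart from the medium either. The rows of GAL80, ALD6, URA3, LEU2, HIS3 and LYS2, which the strain or its BY4742 parent lacks in whole or in part, were listed at 0 in both libraries.

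In alcoholic fermentation, pyruvate decarboxylase splits pyruvate into acetaldehyde and carbon dioxide with thiamine diphosphate as its cofactor, and alcohol dehydrogenase then reduces acetaldehyde to ethanol while NADH is oxidized. Once glucose is used up, Saccharomyces cerevisiae can turn ethanol back into acetaldehyde, chiefly with the ADH2 enzyme, and feed it through acetate to acetyl-CoA, the precursor of sterols and carotenoids. ADH2 is repressed by glucose and activated by Adr1 and Cat8, whereas PDC1 and ADH1 are the main fermentative isoenzymes. PDC5 is known to be repressed by thiamine, PDC6 to be induced when sulfur is scarce and ADH4 to be induced by Zap1 when zinc is scarce. ADH3 works in mitochondria, and ADH5 is the paralog of ADH1 from the whole genome duplication.

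The stretches upstream of ADH2 and ADH1 are shown because the log2 ratios of these genes, given later, lie on opposite sides of 0. Each is 300 bases long, ends 101 bases before the start codon, reads 5′ to 3′ on the strand of the gene and comes from the RefSeq R64 genome. Capitals mark Adr1 motifs (TTGGAGA or TTGGGGA on either strand) in ADH2 and Gcr1 motifs (CTTCC on either strand) in ADH1. The positions are chrXIII:874438-874737, minus strand, for ADH2, and chrXV:160695-160994, minus strand, for ADH1.
ADH2: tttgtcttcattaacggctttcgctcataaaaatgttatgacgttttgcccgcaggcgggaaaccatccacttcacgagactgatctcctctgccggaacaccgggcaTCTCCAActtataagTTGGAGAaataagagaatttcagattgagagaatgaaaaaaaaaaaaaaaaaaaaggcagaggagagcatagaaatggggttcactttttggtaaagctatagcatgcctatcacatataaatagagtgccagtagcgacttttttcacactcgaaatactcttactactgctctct
ADH1: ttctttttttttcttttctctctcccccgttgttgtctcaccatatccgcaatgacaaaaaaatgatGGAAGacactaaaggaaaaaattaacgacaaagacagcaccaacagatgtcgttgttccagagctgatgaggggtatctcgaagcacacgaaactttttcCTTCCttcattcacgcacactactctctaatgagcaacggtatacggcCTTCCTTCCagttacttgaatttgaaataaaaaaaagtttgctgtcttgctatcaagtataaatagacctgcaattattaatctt

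The ADH2 stretch held 2 Adr1 motifs as an inverted repeat, from 292 to 286 and from 277 to 271 bases before the start codon. An Adr1 motif occurred in 5.68% of the 6020 stretches of the same place upstream of protein-coding genes, and in none of the stretches of the other 8 genes. An inverted pair with at most 30 bases between its parts was found upstream of 2 genes, ADH2 and UBP15, the neighbour that shares this intergenic region and had a log2 ratio of -0.38. ADH1 held 4 Gcr1 motifs, of which the last pair overlaps by 1 base, SFA1 held 3, and ADH3 and ADH5 held 1 each. CTTCC is common, since 46.9% of all stretches held it. The stretches of PDC1, PDC5 and PDC6 held neither of these motifs. The Zap1 motif ACCTTNAAGGT, present in 0.0831% of all stretches, and the Rap1 core ACACCC, present in 6.93%, were not in the stretch of any of the 9 genes. The same search found the Zap1 motif in only 1 of 11 Zap1 targets listed later, and the Rap1 core in 1 of 10 lower glycolysis genes. Absence here therefore does not show that a gene lacks a site, since other spellings and places outside the stretch were not searched. The stress element AGGGG, present in 23.5%, was found once each in PDC1, PDC5, ADH1 and ADH5. A match is a description of the letters and no evidence of binding.

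Levels are in TPM, transcript abundance scaled for gene length and library total. Each log2 ratio divides the YPM level by the YPD2 level, with 1 TPM added to both, and a gene counted as changed from 1 upward or from -1 downward. No replicate check exists for any difference, since each medium has 1 library, so no p-value was computed, and the depth behind the values is unknown. Of the 9 genes, PDC1 and PDC6 were higher in YPM and ADH2 was lower, while 6 did not reach the limit. Among the 6350 rows whose mean reached 1 TPM, 8.43% were changed, with 3.28% higher and 5.15% lower in YPM. These rows, the background used below, include noncoding RNAs. The shares were smaller among the 5756 protein-coding genes without a Zap1 motif upstream, with 2.52% higher and 4.07% lower. The 9 genes had a median log2 ratio of -0.05, and all rows had one of -0.13. With YPM rescaled by a factor that sets the median row to no change, the split over all rows was 256 higher and 255 lower in place of 208 and 327, and ADH1 joined the higher genes at a log2 ratio of 1.04.

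**Figure D1:**
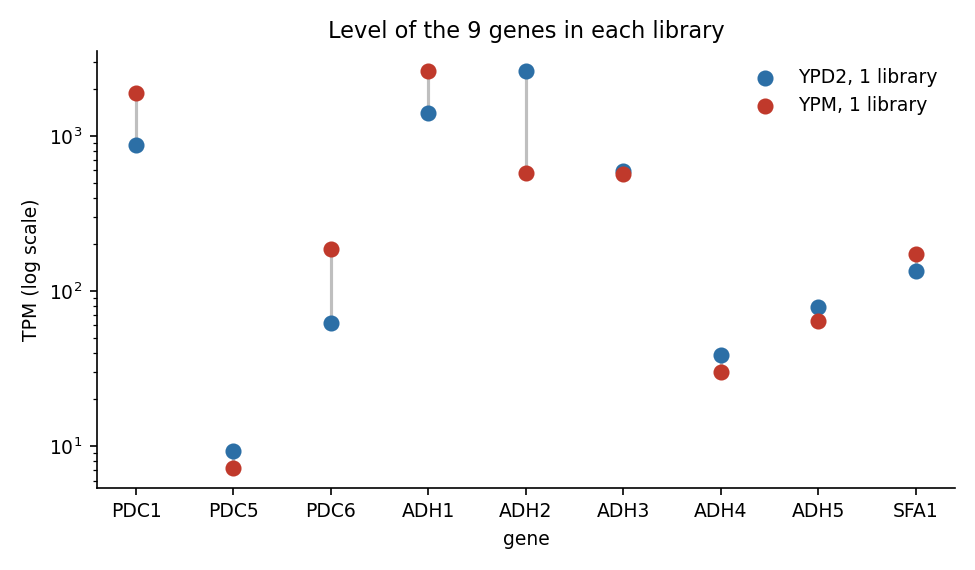
TPM (log scale) of the 9 genes in the YPD2 library (blue) and the YPM library (red), with a grey line joining both values of a gene and no error bars because each medium has 1 library. The red points of PDC1, PDC6 and ADH1 lie above the blue ones, ADH2 is lower (572 against 2632 TPM), and the symbols of ADH3 nearly coincide.

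PDC1 (YLR044C), the major pyruvate decarboxylase, was listed at 1901 TPM in YPM against 869 TPM in YPD2. The ratio of 2.19, or 1.13 as log2, was above the value of 97.3% of all rows. Among the 5762 protein-coding genes compared, PDC1 moved from rank 152 by level in YPD2 to rank 48 in YPM. PDC6 (YGR087C), a minor isoenzyme, had the largest log2 ratio of the 9 genes, 1.57, with 186 TPM in YPM against 62.2 TPM in YPD2. Only 1.61% of all rows had a higher log2 ratio. PDC5 (YLR134W), the isoenzyme repressed by thiamine, was scarce in both media, at 7.23 TPM in YPM against 9.31 TPM in YPD2, which gives a log2 ratio of -0.33. PDC5 was the least abundant of the 9 genes in each library.

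The 3 pyruvate decarboxylase genes summed to 2094 TPM in YPM against 940 TPM in YPD2, which gives a log2 ratio of 1.15. PDC1 made up 92.4% of this sum in YPD2 and 90.8% in YPM, PDC6 6.61% and 8.88%, and PDC5 0.990% and 0.345%. The sum thus stood 2.23-fold higher in YPM while the order of the isoenzymes was the same in both libraries.

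ADH1 (YOL086C), the fermentative alcohol dehydrogenase, was listed at 2628 TPM in YPM against 1403 TPM in YPD2. The log2 ratio was 0.90, just under the limit, and 3.83% of all rows had a higher one. ADH2 (YMR303C), the isoenzyme that uses ethanol, stood at 572 TPM in YPM against 2632 TPM in YPD2, 4.60-fold lower in YPM, with a log2 ratio of -2.20. Only 0.898% of all rows had a lower log2 ratio. ADH2 was the most abundant of the 9 genes in YPD2, and ADH1 took this place in YPM. Both held rank 33 among protein-coding genes in the library where they were highest, and ADH2 dropped to rank 261 in YPM.

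ADH1 was 0.533 times as abundant as ADH2 in YPD2 and 4.59 times as abundant in YPM. Their sum was 3200 TPM in YPM against 4035 TPM in YPD2, which gives a log2 ratio of -0.33. In this pair ADH1 held 34.8% in YPD2 and 82.1% in YPM. The total does not depend on how reads were divided between both genes.

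**Figure D2:**
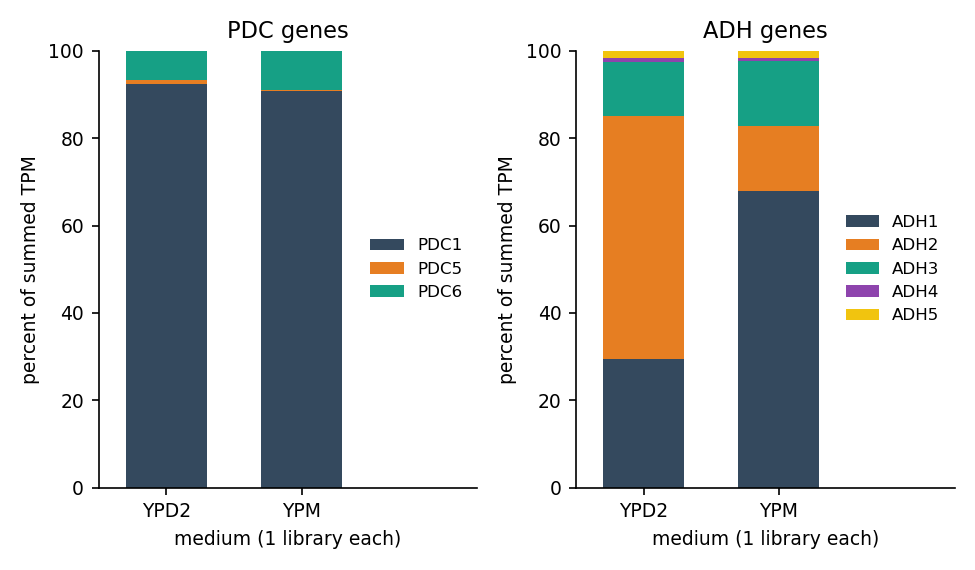
Percent of the summed TPM held by each gene of the PDC family (left) and of the 5 ADH genes (right) in the YPD2 and YPM libraries, 1 library each. PDC1 holds over 90% in both media, whereas ADH2 drops from 55.5% to 14.8% and ADH1 takes 68.0% in YPM against 29.6% in YPD2.

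ADH3 (YMR083W), the mitochondrial isoenzyme, was listed at 571 TPM in YPM against 592 TPM in YPD2. Its log2 ratio of -0.05 was the nearest to 0 of the 9 genes, and it became 0.08 when the median row was set to no change. ADH2 was 4.45 times as abundant as ADH3 in YPD2 and 1.00 times in YPM. ADH5 (YBR145W) was listed at 63.7 TPM in YPM against 78.6 TPM in YPD2, which gives a log2 ratio of -0.30. Although it is the paralog of ADH1, ADH5 lay on the other side of 0, and ADH1 was 17.9 times as abundant in YPD2 and 41.2 times in YPM. ADH4 (YGL256W) was listed at 30.1 TPM in YPM against 38.4 TPM in YPD2, which gives a log2 ratio of -0.34. SFA1 (YDL168W) was listed at 172 TPM in YPM against 135 TPM in YPD2, which gives a log2 ratio of 0.35, and 14.2% of all rows had a higher one.

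The 5 ADH genes summed to 3865 TPM in YPM against 4744 TPM in YPD2, which gives a log2 ratio of -0.30. The summed TPM of the PDC genes was 0.198 times that of the ADH genes in YPD2 and 0.542 times in YPM. All 9 genes together came to 6131 TPM in YPM against 5819 TPM in YPD2, which is 0.662% of the listed total in YPM and 0.621% in YPD2.

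**Figure D3:**
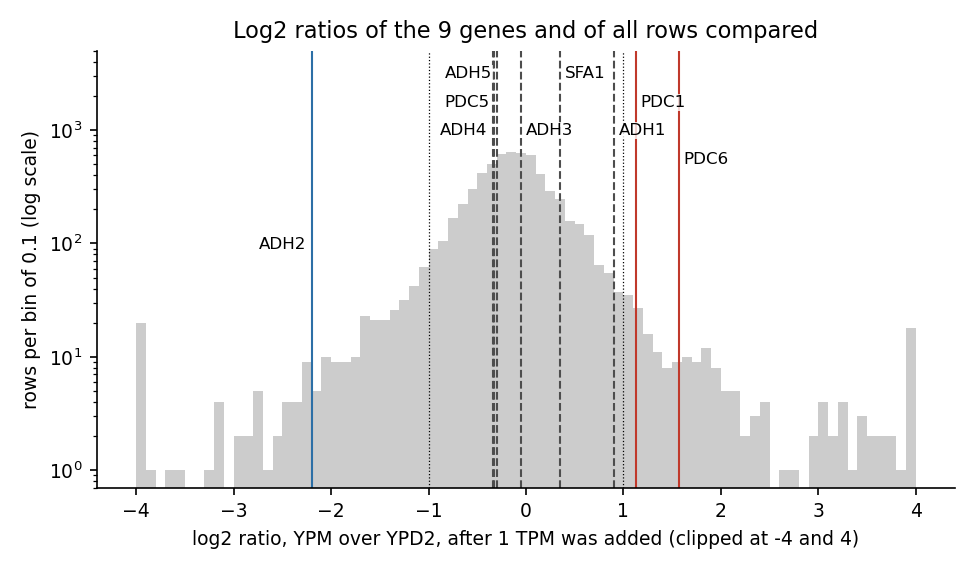
Histogram of log2 ratios (YPM over YPD2) for the 6350 rows compared (grey, bins of 0.1, log count axis, values past the axis ends placed in the end bins), with a vertical line for each of the 9 genes and dotted lines at the limits of -1 and 1. PDC1 and PDC6 (red) lie above the upper limit, ADH2 (blue) below the lower one, and ADH1 at 0.90 just inside.

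The sequences of these genes bear on how well reads could be assigned to each of them. The coding sequences of ADH1 and ADH2, 1047 bases each, were 88.8% identical in R64 and the encoded proteins 93.1%, with 24 differing residues out of 348. Of the 50-base words of each coding sequence, 14.0% also occurred in the other gene, the only other place in R64, and 9.49% of the 100-base words did. The longest identical stretch of 189 bases is shown from ADH1 (chrXV:160204-160412, minus strand) with 10 bases more at the 3′ end and as many at the 5′ end, and capitals mark the 2 bases that differ in ADH2.
ADH1: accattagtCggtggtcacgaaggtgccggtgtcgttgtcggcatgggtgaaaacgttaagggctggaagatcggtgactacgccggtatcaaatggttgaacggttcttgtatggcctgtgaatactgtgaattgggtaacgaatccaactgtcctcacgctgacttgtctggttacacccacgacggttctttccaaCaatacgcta

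A window of 60 bases with many differences between them is shown for contrast, from ADH1 (chrXV:159868-159927, minus strand) and from ADH2 (chrXIII:873611-873670, minus strand), bases 668 to 727 of either coding sequence. Capitals mark the 16 bases that differ.
ADH1: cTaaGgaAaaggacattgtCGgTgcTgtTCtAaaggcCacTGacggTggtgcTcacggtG
ADH2: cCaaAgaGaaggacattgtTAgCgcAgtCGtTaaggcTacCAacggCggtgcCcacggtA

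**Figure D4:**
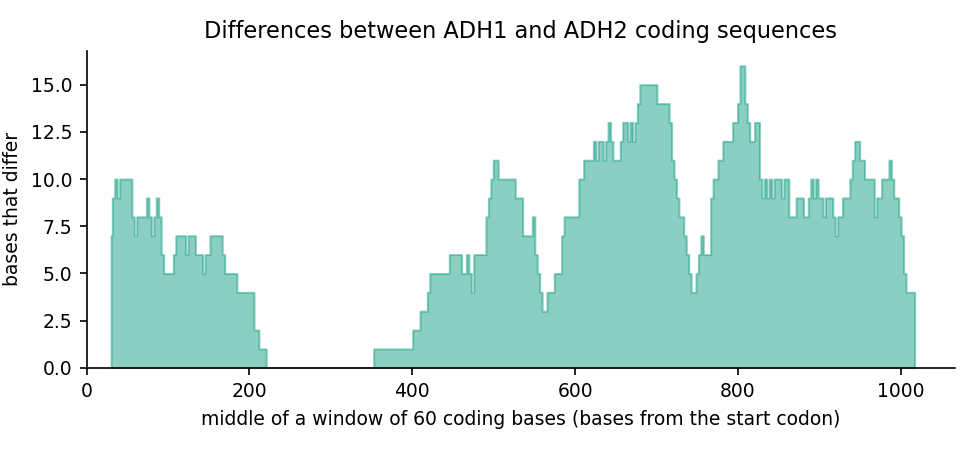
Number of bases that differ between the ADH1 and ADH2 coding sequences in windows of 60 bases, taken every 3 bases, against the middle of the window in bases from the start codon. The differences fall to 0 within the shared stretch of 189 bases and reach 16 at middles of 804 and 807 bases, downstream of the window printed above, where the plotted windows reach 15.

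To see how far this could matter, 14.0% of the TPM of one gene was moved to the other in either library or in both, a check chosen after the values were seen. The log2 ratio of ADH2 then ran from -2.52 to -1.27 and that of ADH1 from 0.35 to 1.17. ADH2 stayed past the limit and ADH1 above 0 in each of these cases, and ADH1 passed the limit in 2 of them. The ADH1 terminator also stands behind crtB in the strain, and whether its reads reached the ADH1 row was not tested. The crtB row stood at 7772 TPM in YPM against 6050 TPM in YPD2, above ADH1 in both libraries. Its log2 ratio was 0.36, below that of ADH1. The GPM1 terminator likewise stands behind crtI. Whether its reads reached the row of GPM1, a gene of the lower glycolysis list below, was not tested either.

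The PDC genes could be told apart better. PDC1 and PDC5 were 87.2% identical in their coding sequences of 1692 bases and shared 0.974% of their 50-base words and none of their 100-base words. PDC1 and PDC6 were 75.0% identical and shared no 50-base word, nor did ADH3, ADH4, ADH5 or SFA1 share one with any place in R64. Windows of 60 bases from PDC1 (chrXII:232497-232556, minus strand) and PDC6 (chrVII:651397-651456, minus strand), the pair that was higher in YPM, are given with their 27 differing bases in capitals.
PDC1: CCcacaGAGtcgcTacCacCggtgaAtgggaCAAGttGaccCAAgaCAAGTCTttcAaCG
PDC6: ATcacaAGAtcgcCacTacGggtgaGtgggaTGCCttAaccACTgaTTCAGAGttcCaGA

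No other gene of the R64 RefSeq annotation overlapped any of the 9 genes. The positions of the coding sequences are chrXII:232390-234081 for PDC1, chrVII:651290-652981 for PDC6, chrXV:159548-160594 for ADH1 and chrXIII:873291-874337 for ADH2, all without an intron and on the minus strand. On the plus strand lie PDC5 at chrXII:410723-412414, ADH3 at chrXIII:434788-435915, ADH4 at chrVII:15159-16307, ADH5 at chrII:533762-534817 and SFA1 at chrIV:159604-160764.

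Genes around pyruvate and acetaldehyde were compared from lists written by hand. In lower glycolysis, which delivers pyruvate, 1 of 10 genes was higher, none was lower and the median log2 ratio was 0.47. The background was 3.28% higher and 5.15% lower, so 1 gene past the limit says little about a list. TDH2, a glyceraldehyde-3-phosphate dehydrogenase with close copies, was the higher one, at 1263 TPM in YPM against 543 TPM in YPD2 (1.22). CDC19, the main pyruvate kinase, stood at 0.54, and PYK2, the minor one, had the lowest value, -0.68. A list named other fates of pyruvate held 14 genes, for pyruvate dehydrogenase, the mitochondrial pyruvate carrier, pyruvate carboxylase and lactate dehydrogenases. Lactate dehydrogenases such as DLD1 and CYB2 form pyruvate from lactate, so not all 14 genes use pyruvate. The 14 genes had a median of -0.47. None of them reached the limit, and all 14 were below 0 (13 with the median row set to no change, when DLD2 passed 0), from DLD2 at -0.04 to MPC2, a carrier subunit, at -0.87. The PDC1 and PDC6 rows lay above all 14 in log2 ratio, whereas PDC5, at -0.33, lay within their range. Lying above DLD2 is common, since 42.2% of all rows had a higher log2 ratio than ADH3, which stood close to DLD2 at -0.05.

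Of the 7 genes compared on a list named acetaldehyde to acetyl-CoA, 3 were higher and 3 lower in YPM, where the background was 3.28% and 5.15%. How much each enzyme contributes to this route was not tested, so the rises are not read as a rise of the route. The higher genes were the aldehyde dehydrogenases ALD3 (78.9 TPM in YPD2, 303 TPM in YPM), ALD5 (20.9 and 49.2 TPM) and ALD2 (75.1 and 158 TPM). ALD2 and ALD3 are close copies, so their division is uncertain. The lower ones were ACS1 (1762 and 452 TPM) and ACS2 (339 and 151 TPM), both acetyl-CoA synthetases, and ACH1 (923 and 364 TPM), a CoA transferase. ALD4, the main mitochondrial aldehyde dehydrogenase, stood at -0.72.

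Most genes on a list of Adr1 or Cat8 targets, which does not hold all known ones, were lower in YPM, as ADH2 was. Besides ADH2, 13 of the 18 genes of this list passed the limit downward and none upward, where the background was 5.15% and 3.28%. The median of the 18 genes was -1.60. This list was written with earlier results of these data known and is no independent evidence. The lowest was ADY2, an acetate transporter, at -3.15. ACS1, already given, stood at -1.96. The others past the limit were the peroxisomal genes CTA1 (-2.26), POX1 (-2.07), FOX2 (-1.65) and POT1 (-1.25), the carboxylate and ammonium transporters SFC1 (-2.23) and ATO3 (-1.76), the glyoxylate enzymes ICL1 (-2.04) and MLS1 (-1.56), the gluconeogenic enzymes FBP1 (-1.77) and PCK1 (-1.38), and the glycerol kinase GUT1 (-1.02), which no longer reached the limit with the median row set to no change. JEN1, a lactate transporter, was the only one above 0, at 0.36. In the stretches upstream, 5 of the 19 genes held an Adr1 motif, namely ADH2, ALD4, ADY2, CTA1 and ATO3, where the share over all stretches was 5.68%.

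**Figure D5:**
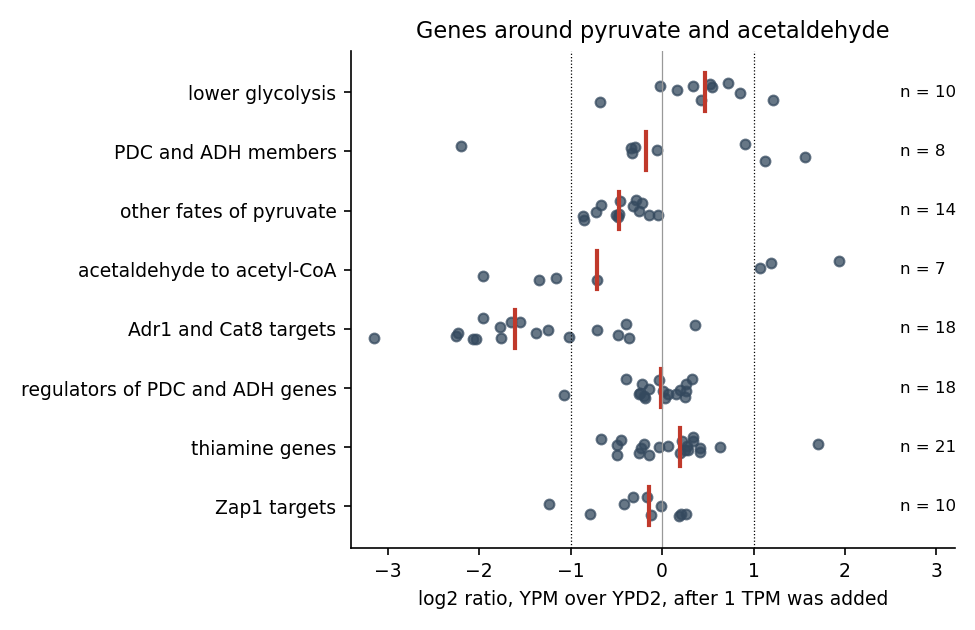
Log2 ratios (YPM over YPD2) for the genes of each list (points, 1 gene each, spread vertically for legibility), with a red bar at the median, dotted lines at -1 and 1 and the number of genes at the right; the 9 genes described here are left out of the other lists, and SFA1 is not drawn. The Adr1 and Cat8 targets sit mostly below -1 like ADH2, and the genes listed as other fates of pyruvate, not all of which use pyruvate, lie between -0.87 and -0.04.

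Of 18 regulators of PDC and ADH genes, 1 was lower and none was higher, where the background was 5.15% and 3.28%. The median was -0.01, or between 0.02 and 0.12 under the 3 rescalings of YPM tried. The lower one was SIP4, an activator of gluconeogenic genes, at 35.3 TPM in YPM against 75.6 TPM in YPD2 (-1.08), and it too was inside the limit with the median row set to no change. ADR1 was listed at 104 TPM in YPM against 138 TPM in YPD2 (-0.40), and CAT8 at 53.0 and 47.4 TPM (0.16). PDC2, an activator of PDC1 and PDC5, stood at -0.24, and GCR1, an activator of glycolytic genes, at 0.19. MIG1, a glucose repressor, had the highest value, 0.33.

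The thiamine list, chosen because PDC needs this cofactor and PDC5 answers to it, had 1 of 21 genes higher and none lower, with a median of 0.20. Here and for the Zap1 targets below, the background was 3.28% higher and 5.15% lower. THI4, an enzyme of thiazole synthesis, stood at 103 TPM in YPM against 30.9 TPM in YPD2 (1.71), and SNO2 was lowest at -0.66. Of the 10 Zap1 targets other than ADH4, 1 was lower, ZPS1 at -1.24 on values of 4.58 TPM in YPM against 12.2 TPM in YPD2, and the median was -0.14. ZAP1 had the highest value, 0.26, and ZRT1, the high-affinity zinc transporter, stood at -0.01, so ADH4 at -0.34 lay within the range of this list.

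Among 22 other genes for alcohols, fusel alcohols and their esters, 2 were lower and none was higher, where the background was 5.15% and 3.28%. Their median of -0.12 became 0.02 when the median row was set to no change. The lower ones were EHT1, an ethyl ester synthase, at -1.41 and BAT2, the cytosolic branched-chain aminotransferase, at -1.12, inside the limit after that rescaling. GRE3, an aldose reductase, was highest at 0.68. ADH6 and ADH7, NADPH-dependent alcohol dehydrogenases, stood at 0.44 and -0.04, and ARO10, a decarboxylase related to PDC, at -0.17. Beside SFA1, the formaldehyde list held YJL068C, an esterase acting after SFA1, at -0.34, and the formate dehydrogenases FDH1 and FDH2 at -2.33 and -2.89. Both are near-identical copies, so their division is uncertain, and SFA1 lay on the other side of 0.

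The rows nearest to ADH1 and ADH2 were sought by Euclidean distance of log2(TPM + 1) over the 2 libraries among protein-coding genes. Nearest to ADH1 were TDH1 at a distance of 0.19 (1603 TPM in YPD2, 2644 TPM in YPM), RPS21B at 0.39 and YNL208W at 0.39. Nearest to ADH2 were MDH2, the cytosolic malate dehydrogenase, at 0.43 (2052 and 486 TPM), DPC7 at 0.51 and MLS1, malate synthase, at 0.55. Over 2 libraries this measure says only that level and difference were alike.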

How the data were processed

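Total RNA of BL03-D-4 was collected after 24 h, polyA-selected and sequenced as 1 library per medium. The authors estimated expression with RSEM and deposited TPM values, and HISAT2 and StringTie are also named in the submitters' processing notes. Tool versions, genome build, annotation, read length and use of strand are not given in the sources used here, and a TPM keeps no record of read number, so depth and counting error are unknown. The column MYPD was read as modified YPD, that is YPM. The file holds TPM although its name speaks of counts, and 4 empty lines were not analysed here.

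Python 3.11.15, pandas 2.3.3, numpy 2.4.6, Biopython 1.88 and matplotlib 3.10.9 were used. Rows whose mean reached 1 TPM were compared by their log2 ratio with 1 TPM added, which understates changes of low genes. Symbols, positions and sequences came from the RefSeq R64 annotation, which matched 6044 rows and can differ from the authors' reference. Sequence words of 50 and 100 bases were searched on both strands of R64, proteins and coding sequences were aligned globally, and motifs were sought as exact matches from 400 to 101 bases before the start codon.

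The 9 genes and all lists were chosen with earlier results of these data known. Genes named are the 9, in each list those past the limit with a mean of at least 10 TPM and the largest rise and fall, and the 3 rows nearest to ADH1 and to ADH2. Other genes, such as CDC19, ALD4, ADR1, CAT8, PDC2, GCR1, ZRT1, ADH6, ADH7, ARO10 and YJL068C, were named after their values were seen. Alternatives were other added values, minimum levels and rescalings of YPM, and a reassignment of shared sequence. The calls and the word search were run on simulated data, with planted changes well past the limit, small noise and a copied stretch of sequence. This checks the code only and says nothing about counting error or replicate spread in these data.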

Additional observations from a re-analysis of the deposited data

How the results depend on the processing

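With 1 library in each medium, no replicate could be left out and no difference can be set against a spread. Values were recomputed with 0.1 or 5 TPM added in place of 1 TPM, with YPM rescaled 3 ways (to the median row, to the sum over protein-coding rows, and to the sum without the 20 most abundant rows), with no minimum or one of 10 TPM, and with the shared part of ADH1 and ADH2 moved between them, the last chosen after seeing the data. Of these values, 147 kept their side of the limit, or a count within 1.5 times, although ADH3 and the median of the other alcohol genes, both near 0, changed sign with the median row set to no change, and the median of the regulators did so under all 3 rescalings. The log2 ratio of ADH1, 0.90 as reported, passed the limit at 1.04 with the median row set to no change, at 1.12 when part of ADH1 was moved to ADH2 in YPD2, and at 1.17 when part of ADH2 was also moved to ADH1 in YPM. The number of rows lower in YPM was 203 with 5 TPM added, against 327. The 3 genes SIP4, BAT2 and GUT1, close to the limit as reported, fell inside it with the median row set to no change. PDC1, PDC6 and ADH2 stayed past the limit under each of these settings that gave them a value. No paired analysis was possible because each medium has 1 library. How far depth limits low values, such as those of PDC5 and ZPS1, is unknown.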
